A study of Homo sapiens with 6 samples.

Results

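The genes described here are 10 markers of endometrial glands and of the duct from which they derive: the mucins MUC1, MUC16 and MUC20, the secreted protein gene WFDC2, and the transcription factor genes PAX8, PAX2, EMX2, FOXA2, MSX1 and FOXJ1. They were taken by name from a table of 58735 genes, each name matched 1 row, and 8 of the 10 held enough counts to be tested among 17299 genes. Ishikawa cells, a cell line grown from a human endometrial cancer, had received either a control siRNA (siNC, called negative control in the labels) or an siRNA directed at TCF19 (siTCF19, TCF19 knockdown). Both groups had 3 libraries, were transfected with a lipid reagent, and gave RNA 48 hours later in the same serum-containing medium. The labels name 1 cell line and leave unsaid whether the 3 libraries were separate cultures, so p-values measure the spread between these libraries, which may be technical.

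Endometrial glands form from an epithelium that descends from the Mullerian duct, and PAX8, PAX2 and EMX2 are homeobox or paired-box factors of that lineage. FOXA2 marks and is required for uterine glands, MSX1 acts in the uterine epithelium, and FOXJ1 switches on the genes of motile cilia. Differentiated gland cells carry transmembrane mucins such as MUC1 and MUC16 on their apical surface and secrete other mucins and small protease-inhibitor-like proteins such as WFDC2.

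The libraries held 14680022 to 16244705 counts. TCF19 itself fell from 179 ± 4.68 to 39.0 ± 3.69 CPM (counts scaled to a common library size with edgeR's TMM factors; SD, n = 3 per group), with an edgeR adjusted p of 6.15e-29. Epithelial identity was checked on 10 markers, all of which passed the filter. EPCAM, the epithelial adhesion molecule, stood at 506 CPM in siNC and 493 CPM in siTCF19. The keratin gene KRT7 was low, at 0.895 CPM in siNC and 1.4 CPM in siTCF19. The summed level of the 10 was 2400 to 2520 CPM in siNC against 2310 to 2400 CPM in siTCF19. By the same test, 4 of the 10 rose, namely ELF3 (log2 fold change 0.72), CDH1 (0.61), KRT19 (0.44) and CLDN3 (0.16), and 2 fell, KRT8 (-0.40) and KRT18 (-0.43). That is 60% called against 41.5% of all tested genes. CLDN3 was not called under 5 of the 15 alternatives, among them DESeq2 (adjusted p = 0.0611) and without siNC replicate 1 (0.314), siNC replicate 3 (0.068) or siTCF19 replicate 1 (0.118). None of 8 immune markers passed the filter, and their sum was 0.569 to 3.27 CPM over all libraries. Of 10 stromal markers 5 were tested, with COL1A1 higher (0.58) and COL1A2 lower (-0.66), while DCN had no count in any library; the stromal sum was 187 to 188 CPM in siNC and 134 to 142 CPM in siTCF19. Of 6 smooth muscle markers 4 were tested and 0 were called by edgeR, 0 had an unadjusted p under 0.05 and DESeq2 called 0 (sums 17.2 to 19.6 and 18.1 to 23.4 CPM; TAGLN 0.26, MYH11 0.05). Endothelial markers summed to 7.38 to 8.15 CPM in siNC and 14.4 to 18.6 CPM in siTCF19, with VWF higher (1.60), CDH5 lower (-1.89) and KDR with 1 count in all. The mitochondrial share of all counts was 3.49% to 3.65% with siNC against 3.92% to 4.08% with siTCF19. The part of these shifts in the results below was not tested. EPCAM, CLDN3, KRT18, KRT7, DCN and KDR are named here outside the rule for named genes, after their values were seen.

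All 3 mucins of the set rose in siTCF19, by 1.55 to 1.68-fold, while WFDC2, MSX1 and FOXJ1 fell by 1.82, 1.36 and 1.65-fold. PAX8 and EMX2 were not called, PAX2 had too few counts for the test, and FOXA2 had no count. A gene was called at an edgeR adjusted p under 0.05. Of all tested genes 41.5% were called, 20.7% higher and 20.8% lower, so 6 called of 8 tested members is to be read against a background in which 2 in 5 genes were called. In 6 of the 8 tested members the groups did not overlap, against 49.2% of all tested genes. In a bulk sample, fewer cells that express a gene and less of its RNA per cell cannot be told apart.

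**Figure D1:**
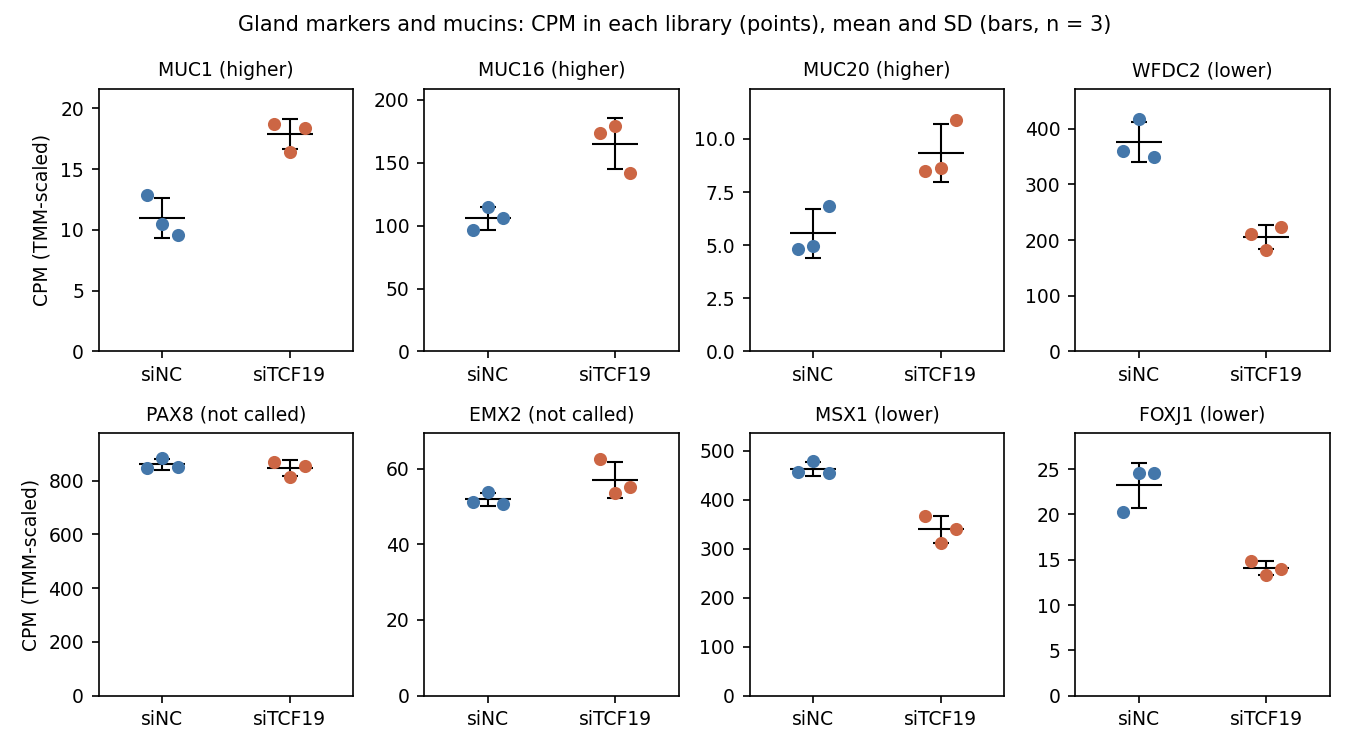
CPM of the 8 tested gland markers and mucins in each library (points), with the mean and SD of 3 libraries per group (black bars); every vertical axis starts at 0 and has its own scale. The siTCF19 points lie above the siNC points for MUC1, MUC16 and MUC20 and below them for WFDC2, MSX1 and FOXJ1, and the groups overlap for PAX8 and EMX2.

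Promoters are shown for 3 members that changed: MUC1 for the mucins, and WFDC2 and MSX1, the most abundant of the genes that fell. Each is 300 bases from RefSeq (build GRCh38.p14), 250 before and 50 from the gene start, written 5′ to 3′ on the gene's strand. Capitals mark matches, on either strand, to a TATA box, to a CCAAT box, which is named by its letters, or to a GC box, whose letters are GGGCGG.

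MUC1, chr1:155192860-155193159, minus strand: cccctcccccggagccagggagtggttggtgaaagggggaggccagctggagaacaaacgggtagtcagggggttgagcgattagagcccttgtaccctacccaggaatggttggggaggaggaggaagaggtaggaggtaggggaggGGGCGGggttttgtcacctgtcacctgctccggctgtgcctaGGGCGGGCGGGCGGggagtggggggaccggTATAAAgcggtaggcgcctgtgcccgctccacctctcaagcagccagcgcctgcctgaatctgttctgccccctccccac

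WFDC2, chr20:45469503-45469802, plus strand: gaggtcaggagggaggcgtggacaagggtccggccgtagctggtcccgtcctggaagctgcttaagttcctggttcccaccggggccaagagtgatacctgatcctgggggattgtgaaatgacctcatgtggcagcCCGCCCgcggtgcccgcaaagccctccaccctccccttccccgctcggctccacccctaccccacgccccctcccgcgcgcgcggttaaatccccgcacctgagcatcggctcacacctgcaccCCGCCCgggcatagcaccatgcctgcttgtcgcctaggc

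MSX1, chr4:4859415-4859714, plus strand: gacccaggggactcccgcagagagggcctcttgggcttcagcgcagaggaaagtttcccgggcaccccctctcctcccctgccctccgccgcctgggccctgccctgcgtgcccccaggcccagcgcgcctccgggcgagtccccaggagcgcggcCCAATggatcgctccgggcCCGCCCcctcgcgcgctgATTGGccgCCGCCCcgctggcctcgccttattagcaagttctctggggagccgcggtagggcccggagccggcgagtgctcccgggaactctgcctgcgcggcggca

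MUC1 holds 1 TATA box (TATAAA) whose first base lies 30 bases before the gene start, and 4 GC boxes, of which 3 overlap in a run. WFDC2 holds 2 GC boxes, and MSX1 holds 2 GC boxes and 2 CCAAT boxes. Of 35116 RefSeq promoters of this length, 11.5% hold the TATA box, 34.6% the CCAAT box and 45% the GC box on either strand. G and C made up 65.7% of the MUC1 window, 67.3% of that of WFDC2 and 74.7% of that of MSX1, where the median promoter had 58.7% and the upper quartile was 68%. Matches to TTCNNNGAA (a STAT motif, in 7.66% of promoters), CACGTG (an E-box, 7.26%), TGANTCA (an AP-1 motif, 7.71%) and TGTTTAC (a FOX core, 3.42%) were also searched for, and none of these letters was found in the 3 windows. RefSeq promoters matched 7 of the 10 members. A MUC16 window, not printed here, held an AP-1 match (TGAATCA, first base at -136 from its gene start).

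MUC16 encodes the very large transmembrane mucin that carries the CA125 epitope, and it was the most highly counted mucin of the set. It drew 1409, 1810 and 1654 counts under siNC but 2749, 2683 and 2197 under siTCF19, or 96.8, 115 and 106 CPM against 174, 179 and 142 CPM. The lowest siTCF19 library lay above the highest siNC library. MUC16 rose 1.55-fold (95% interval from 1.42 to 1.70), or 0.64 ± 0.06 (SE) on the log2 scale, and its adjusted p from edgeR was 5.69e-11. The gene lies on chromosome 19 from 8848844 to 8981342 on the minus strand of hg38, with 5 annotated transcripts of up to 84 exons. RefSeq places MUC16 starts at 9065751 and 9010409, outside the deposited gene, so reads from exons in that stretch are not part of these counts.

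MUC1 is the transmembrane mucin that covers the apical surface of endometrial epithelium. Counts of 187, 165 and 150 in the siNC libraries compared with 296, 246 and 286 after siTCF19, or 12.9, 10.5 and 9.62 CPM against 18.7, 16.4 and 18.4 CPM. Every siTCF19 library was above every siNC library. MUC1 rose 1.63-fold (1.39 to 1.91), or 0.70 ± 0.11 on the log2 scale, and its edgeR adjusted p was 2.25e-06. It lies on chromosome 1 from 155185824 to 155192916 on the minus strand, and its 29 annotated transcripts have 2 to 11 exons.

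MUC20, a smaller membrane mucin, was the least abundant of the tested members. It had 70, 78 and 107 counts in the siNC libraries but 134, 129 and 169 after siTCF19, or 4.81, 4.96 and 6.86 CPM against 8.48, 8.62 and 10.9 CPM. In both groups the library numbered 3 was the highest, and the groups did not overlap. MUC20 rose 1.68-fold (1.35 to 2.08), or 0.75 ± 0.15 on the log2 scale, and its edgeR adjusted p was 0.000115.

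The value of MUC20 is uncertain because other genes share its sequence. Of its exonic bases, 42.8% also belong to exons of MUC20-OT1, a non-coding gene on the same strand, and 21.5% of its words of 50 bases occur in transcripts of MUC20P1, a pseudogene copy. MUC20-OT1 was at 73.8 ± 3.89 CPM in siNC and 82.9 ± 2.09 CPM in siTCF19 (log2 fold change 0.17, edgeR adjusted p = 0.0186), a call lost with limma-trend (0.134) and without siNC replicate 1 (0.0685) or siNC replicate 2 (0.0866). MUC20P1 was at 2.49 ± 0.996 and 3.28 ± 0.293 CPM and was not called (0.41, adjusted p = 0.19). The sources used here do not say how the authors' counting divided reads between these genes. Transcripts of MUC1, MUC16, WFDC2, MSX1, FOXJ1 and PAX2 shared no word of 50 bases with another annotated gene.

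The other mucin genes, from a list of 19, moved in both directions: of 9 tested, 2 rose, 5 fell and 2 were not called. That is 77.8% called against 41.5% of all tested genes. Their median log2 fold change was -0.60 against 0.00 over all tested genes. The secreted, gel-forming mucin MUC5AC gave 234, 274 and 240 counts in the siNC libraries against 86, 65 and 69 after siTCF19, and fell from 16.3 ± 1.04 to 4.74 ± 0.606 CPM (log2 fold change -1.78 ± 0.13, edgeR adjusted p = 1.35e-14). MUC2 (-1.08, adjusted p = 0.000239) and MUC5B (-1.30, adjusted p = 0.00478, with limma-trend 0.244), gel-forming mucins that lie beside MUC5AC on chromosome 11, fell as well, as did OVGP1, an oviductal mucin-like glycoprotein (-0.95, adjusted p = 1.93e-05). MUC6, the fourth mucin gene there, went from 2.92 to 3.80 CPM and was not called (0.37, adjusted p = 0.193). MUC2, MUC5B, OVGP1 and MUC6 were named after their values were seen.

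MUC4 is a transmembrane mucin whose gene starts at 195746765 on chromosome 3, next to the end of MUC20 at 195741123. It fell from 31.5 ± 0.707 to 20.8 ± 0.481 CPM (-0.60 ± 0.08, edgeR adjusted p = 1.08e-07), the opposite direction to MUC20. CD164, a sialomucin of the endosome and cell surface, rose from 252 ± 9.79 to 357 ± 23.1 CPM (0.50 ± 0.05, adjusted p = 1.61e-11). MUC19 had 0, 5 and 4 counts in siNC and 37, 36 and 47 in siTCF19. edgeR called it (log2 fold change 3.67, adjusted p = 9.84e-09), whereas limma-trend on log2(FPKM + 1) did not (0.11, adjusted p = 0.0797). MUC19 was at 0.00644 FPKM in siNC and 0.0871 FPKM in siTCF19. At such levels the added 1 keeps the limma-trend difference small whatever the fold change. The same holds for MUC5B, at 0.0882 FPKM in siNC and 0.0356 FPKM in siTCF19.

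Of 29 genes of mucin-type O-glycan synthesis, 20 were tested, 13 rose, 4 fell and 3 were not called. That is 85% called against 41.5% of all tested genes, with a median log2 fold change of 0.29. The N-acetylgalactosaminyltransferases start each glycan: GALNT3 rose from 53.7 ± 2.13 to 106 ± 9.98 CPM (0.98 ± 0.06, edgeR adjusted p = 1.15e-16) and GALNT1 from 61.6 ± 4.03 to 87.6 ± 9.99 CPM (0.51 ± 0.07, adjusted p = 3.72e-08). GALNT12, of the same family, fell from 36.3 to 23.8 CPM (-0.61, adjusted p = 4.56e-08). ST6GALNAC1, which adds sialic acid to the first sugar, rose from 49.6 to 66.3 CPM (0.42, adjusted p = 1.13e-06). ST6GALNAC4 fell too (-0.44, adjusted p = 1.22e-06). GALNT2 (-0.19, adjusted p = 0.0142) was not called under 3 of the 15 alternatives: library-size-only scaling (adjusted p = 0.101), without siNC replicate 2 (0.0647) and without siTCF19 replicate 1 (0.126). GALNT4 (-1.22, adjusted p = 0.0368) was not called under 7, among them DESeq2 (adjusted p = 0.103), limma-trend (0.141), and the filter of 1 CPM, which it did not pass. It also lost the call without replicate 2 (0.12) or 3 (0.155) of siNC, and without replicate 1 (0.15) or 2 (0.191) of siTCF19. Without siNC replicate 2 or siTCF19 replicate 1, 2 falls were left. GALNT2, GALNT4 and ST6GALNAC4 were named after their values were seen.

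**Figure D2:**
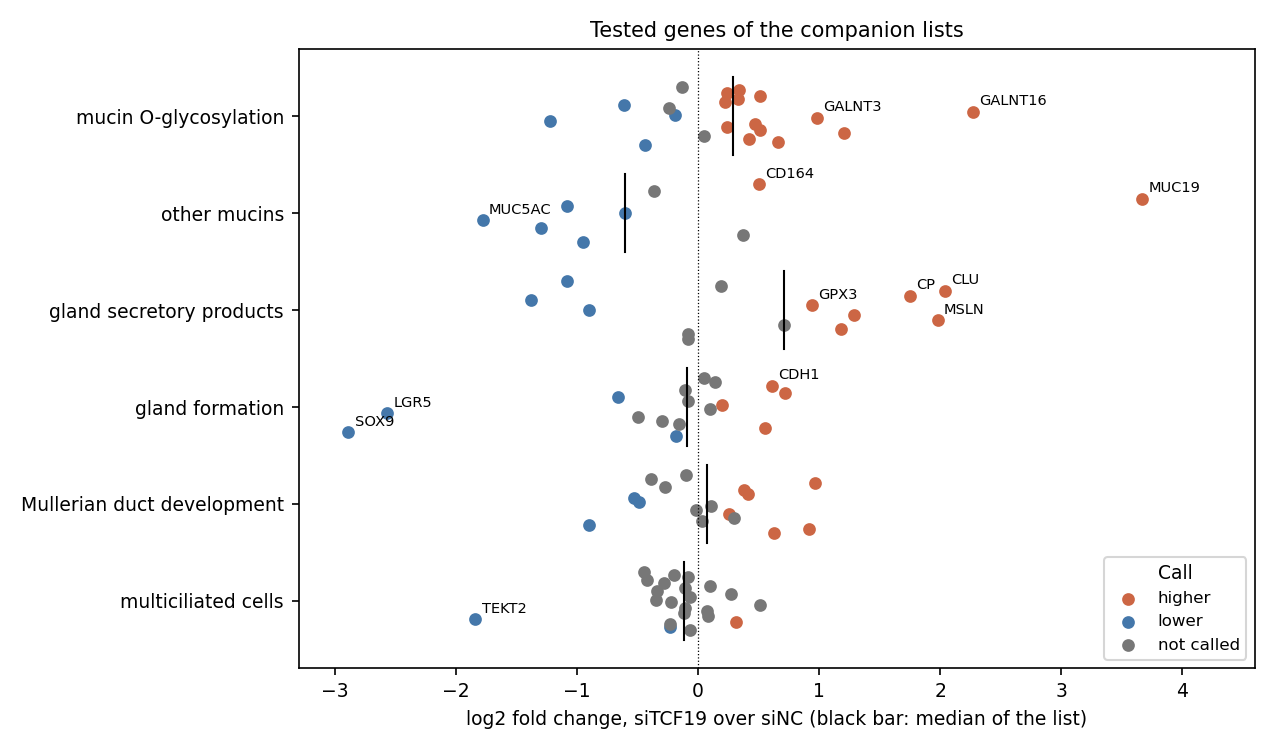
log2 fold change of siTCF19 over siNC for every tested gene of 6 companion lists (1 point per gene, colour by call at an edgeR adjusted p under 0.05; vertical spread within a list only separates the points), with the median of each list as a black bar. Most O-glycosylation genes lie to the right of 0 (13 higher, 4 lower) and the other mucins mostly to the left (5 lower, 2 higher). Most genes of multiciliated cells lie near 0 (19 not called, several of them at low counts). Of all tested genes 41.5% were called.

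WFDC2 encodes a small secreted protein with whey acidic protein domains, known as HE4 and measured as a serum marker of ovarian and endometrial carcinoma. With siNC its counts reached 5235, 6554 and 5458, and with siTCF19 they were 3338, 2731 and 3481, or 360, 417 and 350 CPM against 211, 182 and 224 CPM. No siTCF19 library reached the lowest siNC library. WFDC2 fell 1.82-fold (1.68 to 1.98), or -0.87 ± 0.06 on the log2 scale, and its edgeR adjusted p of 4.30e-16 was the lowest among the 8 tested members. The gene spans 45469706 to 45481532 on the plus strand of chromosome 20, and its promoter is printed above.

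Other genes of the WAP domain family, most of them in a cluster on the same chromosome, were scarce apart from SLPI. Of 15 listed, 3 were tested, 0 rose (DESeq2 called 0, and 0 had an unadjusted p under 0.05), 2 fell and 1 was not called. With so few tested, 66.7% were called against 41.5% of all tested genes. EPPIN fell from 1.48 to 0.453 CPM (-1.69, edgeR adjusted p = 0.000922). WFDC8 went from 0.930 to 0.392 CPM with overlapping groups (-1.25, adjusted p = 0.0434), and that call was not made under 8 of the 15 alternatives, DESeq2 among them (adjusted p = 0.12), and the lost calls include those without replicate 2 of siNC (0.312), or without replicate 1 (0.112) or 3 (0.238) of siTCF19. SLPI, the secretory leukocyte protease inhibitor, was at 11.3 ± 0.148 and 10.7 ± 0.437 CPM and was not called (-0.08, edgeR adjusted p = 0.611). Per length SLPI stood at 18.8 FPKM in siNC, above 83.4% of tested genes. It was named after its values were seen.

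Among other products of endometrial glands, 6 of 13 tested genes (25 listed) rose, 3 fell and 4 were not called. That is 69.2% called against 41.5% of all tested genes. The median log2 fold change of 0.71 was the value of SCGB1D2, which was not called (edgeR adjusted p = 0.0905). SPP1, with the highest CPM of the list in siNC, was at 162 and 153 CPM and was not called either (-0.08, adjusted p = 0.212). GPX3, a secreted glutathione peroxidase, rose from 80.4 ± 3.26 to 154 ± 9.37 CPM (0.94, edgeR adjusted p = 5.92e-18), and CP, ceruloplasmin, from 8.60 to 28.9 CPM (1.75, adjusted p = 1.61e-17). The chaperone clusterin, CLU, rose from 1.48 to 6.09 CPM and the secretoglobin gene SCGB2A1 from 2.40 to 5.45 CPM. The other rises were of LTF (1.01 to 2.47 CPM) and MSLN (0.327 to 1.31 CPM). MSLN did not pass the filter of 1 CPM. PAEP, the glycodelin gene of secretory-phase glands, was 1 of 7 genes of this list with no count in any library. The falls were of DPP4 (-1.38, adjusted p = 0.00611), AGR2 (-1.08, adjusted p = 7.66e-05) and LCN2 (-0.90, adjusted p = 0.0402). LCN2 was not called under 7 of the 15 alternatives: DESeq2 (adjusted p = 0.0961), limma-trend (0.0821), library-size-only scaling (0.0558), and the runs without replicate 1 (0.116) or 2 (0.172) of siNC, or without replicate 2 (0.238) or 3 (0.088) of siTCF19. DPP4 was not called under 3: limma-trend (0.0516), without siNC replicate 3 (0.0797) and without siTCF19 replicate 2 (0.0508). With limma-trend, and without siTCF19 replicate 2, both lost the call and 1 fall was left. DPP4, AGR2, LCN2, PAEP, SCGB1D2, SPP1, LTF and MSLN were named after their values were seen.

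PAX8, the paired-box factor used in pathology to mark Mullerian epithelium, was the most highly counted member and was not called. The siNC libraries gave 12341, 13894 and 13274 counts and the siTCF19 libraries 13758, 12207 and 13248, or 848, 884 and 852 CPM against 870, 815 and 854 CPM. The groups overlapped. The ratio of siTCF19 to siNC was 0.983 (95% interval from 0.928 to 1.04), or -0.02 ± 0.04 on the log2 scale, with edgeR's adjusted p at 0.675, and its sign turned with library-size-only scaling (0.04) and without siTCF19 replicate 2 (0.01). PAX8-AS1, on the opposite strand, shares 685 of the exonic bases of PAX8 and rose from 163 to 209 CPM (0.36, adjusted p = 4.24e-07). Without the strand setting of the counting, which the sources used here do not give, reads from the shared bases cannot be assigned to one of the pair.

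PAX2, the close relative of PAX8 in duct development, was near the limit of detection. It had 5, 12 and 12 counts in siNC and 0, 5 and 5 in siTCF19, and it did not pass the filter on low counts. The siTCF19 libraries held 10 counts in all against 29, and the highest of them equalled the lowest siNC library. With no filter its log2 fold change was -1.51 with an edgeR adjusted p of 0.0906. PAX2 did pass the filter when some single libraries were left out, with adjusted p-values of 0.0349 (without siNC replicate 1, -1.79) to 0.285 (without siTCF19 replicate 1, -0.92). A count of 3 equals 0.190 to 0.206 CPM in these libraries.

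EMX2, a homeobox factor needed for the urogenital tract, gave 743, 846 and 791 counts in the siNC libraries and 987, 800 and 853 after siTCF19, or 51.1, 53.8 and 50.7 CPM against 62.4, 53.4 and 55.0 CPM. Replicate 1 of siTCF19 was high and replicate 2 lay within the siNC range. On the log2 scale the difference was 0.14 ± 0.07 (95% interval from 0.00 to 0.27), which edgeR did not call (adjusted p = 0.103). Library-size-only scaling gave a call (0.20, adjusted p = 0.0154), as did leaving out siTCF19 replicate 2 (0.19, adjusted p = 0.031), and the value was 0.07 without siTCF19 replicate 1. Its antisense partner EMX2OS, which shares 255 of its exonic bases, was at 7.55 ± 1.06 and 8.61 ± 0.55 CPM and was not called (0.19, adjusted p = 0.293).

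MSX1 encodes a homeobox repressor of the uterine epithelium and was second to PAX8 in counts. The siNC libraries held 6644, 7533 and 7081 of them and the siTCF19 libraries 5818, 4677 and 5273, or 457, 479 and 454 CPM against 368, 312 and 340 CPM. All siTCF19 libraries were below all siNC libraries. MSX1 fell 1.36-fold (1.27 to 1.46), or -0.45 ± 0.05 on the log2 scale, and its edgeR adjusted p was 3.97e-10. Its paralogue MSX2 had no count in any library. The gene runs from 4859666 to 4863936 on the plus strand of chromosome 4 and overlaps no other annotated gene.

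FOXA2, the forkhead factor of uterine glands, had 0 counts in all 6 libraries, which allows a level of up to 0.190 to 0.206 CPM per library (counting error only). Among its relatives, FOXA1 fell from 8.98 ± 0.668 to 5.68 ± 0.158 CPM (-0.66 ± 0.14, edgeR adjusted p = 0.000215) and FOXA3 had 4 counts, all in siTCF19 replicate 2. FOXA1 was the 1 called gene of 5 tested among 13 paralogues of the 6 transcription factors, 20% against 41.5% of all tested genes. By edgeR 0 rose and by DESeq2 0, and 1 had an unadjusted p under 0.05 for a rise. PAX6, a paralogue of PAX8 and PAX2, was at 18.7 and 18.4 CPM (-0.03, adjusted p = 0.867). LIF, which glands release at implantation and which depends on FOXA2 in the mouse uterus, was at 1.60 ± 0.488 and 1.13 ± 0.332 CPM and was not called (-0.50, adjusted p = 0.258). LIF, FOXA3, MSX2 and PAX6 were named after their values were seen.

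FOXJ1, the factor that starts the motile cilium program, gave 295, 386 and 384 counts in the siNC libraries against 235, 199 and 217 after siTCF19, or 20.3, 24.6 and 24.6 CPM against 14.9, 13.3 and 14.0 CPM. The siTCF19 libraries lay close together, below the lowest siNC library. FOXJ1 fell 1.65-fold (1.43 to 1.90), or -0.72 ± 0.10 on the log2 scale, and its edgeR adjusted p was 1.31e-07. It lies on chromosome 17 from 76136333 to 76141299 on the minus strand. The antisense gene RNF157-AS1, which shares 9 of its exonic bases, rose from 21.3 ± 1.20 to 38.9 ± 1.82 CPM (0.87 ± 0.08, adjusted p = 7.12e-12), and RNF157, its neighbour, rose as well (0.38, adjusted p = 2.11e-05).

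Genes of multiciliated cells were rarely called beside FOXJ1. The list had 32 names and 33 rows, since CCDC39 stands for 2 gene identifiers: of 22 rows tested, 1 rose, 2 fell and 19 were not called, 13.6% against 41.5% of all genes, with a median log2 fold change of -0.12. TEKT2, a filament protein of the axoneme, fell from 3.97 ± 0.682 to 1.1 ± 0.395 CPM (-1.84 ± 0.27, edgeR adjusted p = 3.83e-07). TUBB4B, a tubulin that most cells also use, fell from 945 to 807 CPM (-0.23, adjusted p = 2.45e-05). TP73, a regulator upstream of FOXJ1, rose from 19.8 to 24.7 CPM (0.31, adjusted p = 0.00707) but was not called without siNC replicate 1 (0.22, adjusted p = 0.0909), nor with limma-trend (0.24, adjusted p = 0.0643), and 0 rises were left in both. MCIDAS and CCNO, which drive the making of basal bodies, were at 5.74 and 14.5 CPM in siNC and 5.46 and 15.6 CPM in siTCF19 and were not called (-0.07 and 0.10); the axonemal genes DNAI2 and SPAG6 had no count. Apart from TUBB4B, the mean siNC level of the listed genes was at most 34.4 CPM (CAPS). Several tested genes were far lower in siNC, such as TPPP3 (0.91 CPM), RFX2 (0.943 CPM) and RSPH1 (1.07 CPM). The interval of RSPH1 was wide, from -0.7 to 0.83 on the log2 scale. For such genes, not called is not the same as unchanged. The part of low counts in the low share called was not tested. MCIDAS, CCNO, DNAI2, SPAG6, CAPS, TPPP3, RFX2 and RSPH1 were named after their values were seen.

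**Figure D3:**
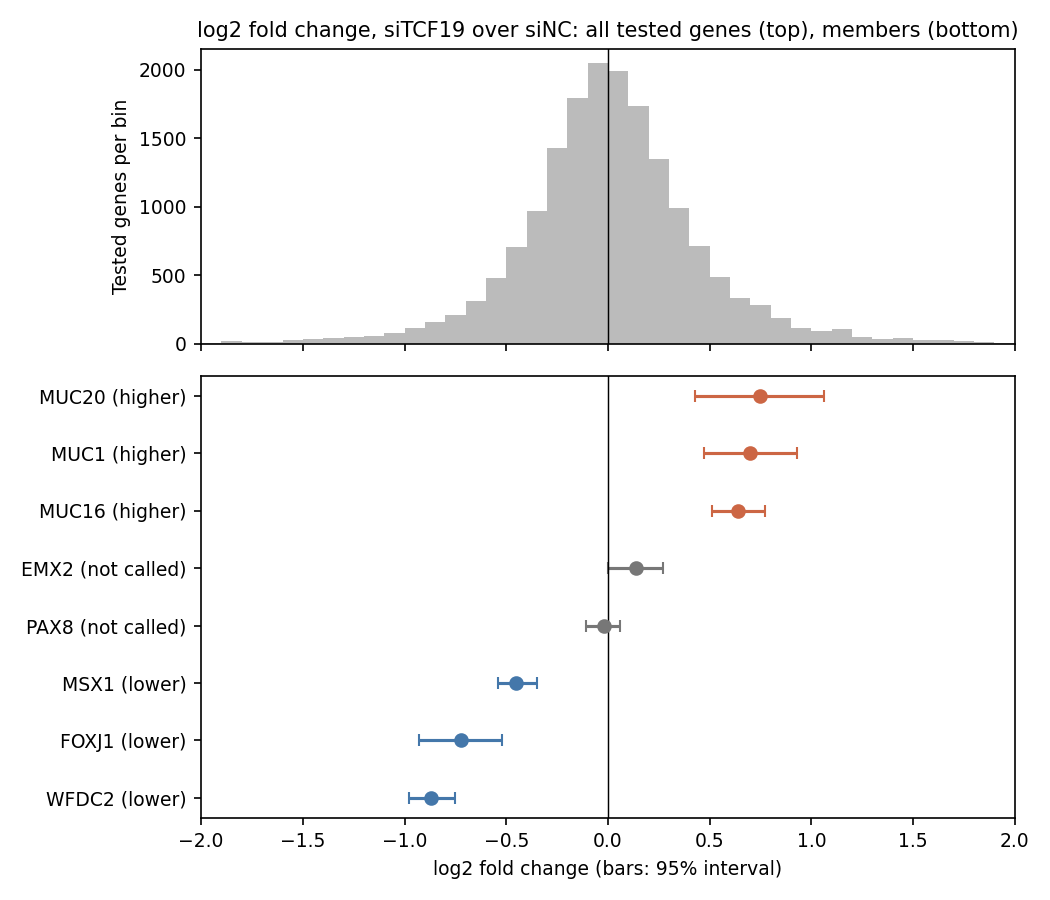
Top, the log2 fold change of siTCF19 over siNC for the tested genes between -2 and 2 (bars, genes per bin of 0.1); bottom, the value of each of the 8 tested members with its 95% interval. MUC20, MUC1 and MUC16 lie at 0.64 to 0.75 with overlapping intervals, EMX2 and PAX8 near 0, and MSX1, FOXJ1 and WFDC2 between -0.45 and -0.87.

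By size of change, the called members ranked above most tested genes. Calling favours larger changes and only 41.5% of tested genes were called, so these ranks are a description only. The size of the WFDC2 change exceeded that of 92.9% of tested genes, those of MUC20, FOXJ1, MUC1 and MUC16 that of 90.1%, 89.4%, 88.8% and 86.4%, and that of MSX1 75.5%. Those of EMX2 and PAX8, which were not called, exceeded that of 31% and 5.97%. No tested member reached a 2-fold change, whereas TCF19 fell 4.59-fold. The 95% intervals of the 3 mucins, 0.43 to 1.06 for MUC20, 0.47 to 0.93 for MUC1 and 0.51 to 0.77 for MUC16 on the log2 scale, all overlapped, and differences between them were not tested.

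Among the tested members PAX8 had the tightest libraries in both groups and MUC20 the widest. The coefficient of variation of CPM was 2.32% and 3.35% for PAX8 (siNC and siTCF19), 8.66% and 12.3% for MUC16, and 20.6% and 14.6% for MUC20. In total the 10 genes took 26929 to 31278 counts per siNC library and 23677 to 27315 per siTCF19 library, most of them from PAX8, MSX1 and WFDC2.

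Per length, in the authors' deposited FPKM (fragments scaled for gene length and library size), the order of the siNC levels was WFDC2, MSX1, PAX8, EMX2, FOXJ1, MUC16, MUC1, MUC20, PAX2 and FOXA2. WFDC2 was at 250 to 300 FPKM, MSX1 at 212 to 225 and PAX8 at 114 to 119, above 99.5%, 99.4% and 98.4% of the tested genes. EMX2 (15.4 to 16.4) and FOXJ1 (7.62 to 9.24) came next. MUC16 (2.19 to 2.61) and MUC1 (2.02 to 2.71) overlapped, although MUC16 had many more counts over its 43830 exonic bases than MUC1 over 4717. MUC20 was at 1.12 to 1.60 FPKM and PAX2 at 0.0546 to 0.122.

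The order differed in siTCF19 at the top, and no change beyond the spread was seen among the mucins. WFDC2 (130 to 161 FPKM) and MSX1 (145 to 173) overlapped there, while PAX8 stayed below both at 109 to 117. MUC1 (3.44 to 3.95) and MUC16 (3.20 to 4.03) overlapped again, now closer to FOXJ1 (4.96 to 5.60), and PAX2 (0 to 0.0528) reached FOXA2 in 1 library.

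**Figure D4:**
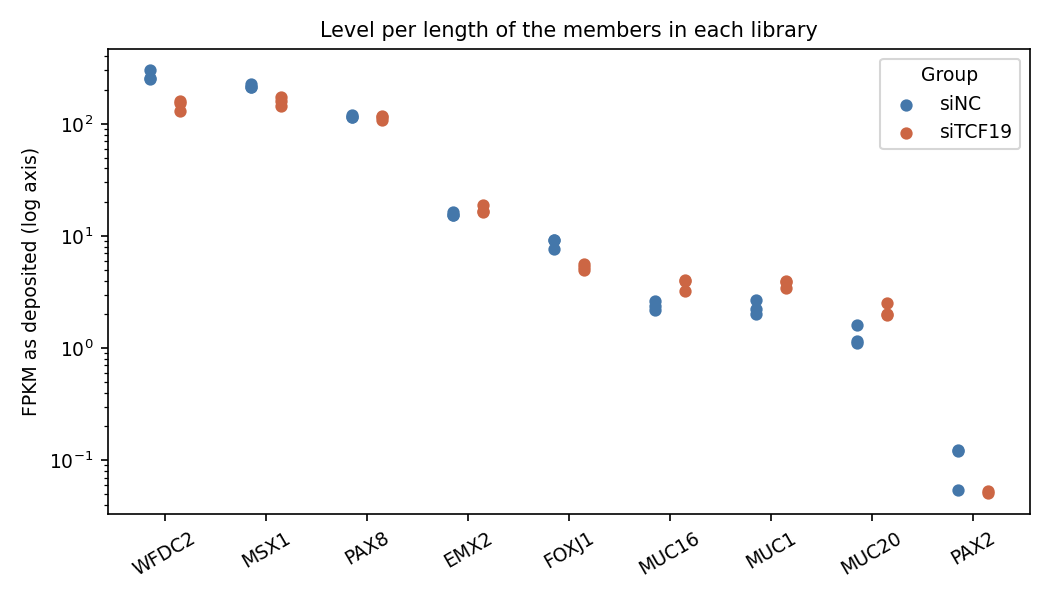
Deposited FPKM of the members in each library on a log axis, ordered by their mean in siNC (blue, siNC; orange, siTCF19); FOXA2 and 1 siTCF19 library of PAX2, both at 0, cannot be drawn on this axis. WFDC2, MSX1 and PAX8 lie above 100 FPKM in both groups, and the mucins between 1.12 and 4.03.

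Among genes that act in gland formation, 16 of 22 were tested, 4 rose, 4 fell and 8 were not called, with a median log2 fold change of -0.09. That is 50% called, near the 41.5% of all tested genes. The largest values in this list were falls of SOX9, a progenitor factor (85.1 to 11.4 CPM, -2.89), and LGR5, a stem cell receptor (63.7 to 10.7 CPM, -2.57). CDH1, E-cadherin, rose from 199 to 304 CPM (0.61, edgeR adjusted p = 1.17e-14) and ELF3, an epithelial ETS factor, from 46.7 to 77.0 CPM (0.72, adjusted p = 8.81e-13). FOXA1, named above, and STAT3, which carries the LIF signal, fell (-0.66 and -0.18, adjusted p = 0.000215 and 0.00737), and IL6ST, the shared receptor chain of LIF, rose (0.20, adjusted p = 0.00383). STAT3 lost the call with library-size-only scaling (-0.12, adjusted p = 0.0788) and without siNC replicate 3 (-0.16, adjusted p = 0.0537), and IL6ST with limma-trend (0.18, adjusted p = 0.0585). SOX17, a partner of FOXA2 in gland development, rose from 188 ± 7.85 to 275 ± 11.4 CPM (0.55, adjusted p = 9.42e-13) and, like STAT3 and IL6ST, was named after its values were seen.

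Of 25 genes of Mullerian duct development, 16 were tested, 6 rose, 3 fell and 7 were not called, with a median of 0.07. That is 56.2% called against 41.5% of all tested genes. WNT7A, a uterine epithelial ligand, rose from 21.4 to 33.0 CPM (0.63, edgeR adjusted p = 4.68e-08) and the homeobox gene DLX5 from 4.86 to 9.53 CPM (0.97, adjusted p = 1.15e-06). HOXA10, which patterns the uterus, fell from 28.8 ± 0.187 to 19.9 ± 0.197 CPM (-0.53, adjusted p = 1.84e-06). HOXA11 fell as well (-0.49, adjusted p = 0.00119). Of 17 genes that neighbour, overlap or copy a member, 11 were tested, 5 rose, 1 fell (MUC4) and 5 were not called. Their median was 0.19, and 54.5% were called. Besides PAX8-AS1, MUC20-OT1, RNF157-AS1 and RNF157, MTX1, a neighbour of MUC1, rose (0.20, adjusted p = 0.0406), a call not made under 7 of the 15 alternatives, among them DESeq2 (0.0759), the replicate block (0.0585), and the runs without replicate 1 (0.0603) or 3 (0.232) of siNC, or without replicate 1 (0.0752) or 3 (0.0822) of siTCF19. HOXA11 and MTX1 were named after their values were seen.

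The genes whose profiles over the 6 libraries were most like those of the most clearly changed members were found by the root mean square difference of centred log2 CPM, among 11787 genes whose mean over all libraries reached 5 CPM. For MUC16 they were ANKRD36C (0.0656), HIVEP2 (0.0658) and CD59 (0.0683), and for WFDC2 they were EGFL7 (0.0496), IFIT2 (0.0534) and TTLL12 (0.0589). With 2 groups of 3, such a match mainly reflects a like fold change: EGFL7 had -0.88 and CD59 0.70 on the log2 scale.

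The authors' deposited table lists log2 fold changes of 0.703 for MUC1, 0.636 for MUC16, 0.749 for MUC20, -0.867 for WFDC2, -0.446 for MSX1 and -0.722 for FOXJ1. These rest on the same libraries and are no separate check.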

How the data were processed

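Per the file headers, the authors deposited 1 table with whole-number read counts and FPKM for each of the 6 libraries. The normalized group mean, a signal per gene, was computed by the authors, per the file headers. The deposited log2 ratio of the groups was computed by the authors as siTCF19 over siNC, per the file headers. The deposited p-value and its adjusted form were computed by the authors with a tool that the headers do not name. Per the submitters' processing notes, HISAT2 2.0.5 and featureCounts 1.5.0-p3 were used with build hg38 (strand and multi-mapping settings not given in the sources used here). Each of the 58735 genes had the start and end of GENCODE release 29.

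Counts were filtered by filterByExpr, TMM-scaled and tested with edgeR 4.0.16 (glmQLFit, glmQLFTest, R 4.3.3; group as the only term) over 17299 genes, with Benjamini-Hochberg adjustment over all of them. Fold intervals are 95% intervals from the standard error, and errors on CPM are SDs. Library totals of 14680022 to 16244705 counts put a floor of 3 counts at 0.190 to 0.206 CPM; intervals and floors cover counting or replicate error only, since reads carry no molecular identifiers. The script was tested on simulated counts. No 2 libraries agreed within sampling noise (chi-square per degree of freedom 2.21 to 3.49 within groups, 22.6 to 26.5 between).

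The members, gene lists and tests were chosen with earlier results of these data known. Besides the members and TCF19, the rule named up to 4 called genes of each of 14 lists by lowest p (the 2 of highest mean CPM where none was called), genes that overlap or copy a member, and 3 genes most like MUC16 and WFDC2; other genes are marked where they are named, and 1 gene the rule named is not reported here. Alternatives were scaling by RLE, by upper quartile or by library size alone, dropping the filter or asking for 1 CPM in 3 libraries, DESeq2 1.42.0, limma-voom and limma-trend on log2(FPKM + 1) (limma 3.58.1), the replicate number as a block, and each library left out in turn. Sequences came from RefSeq tables of GRCh38.p14 and copies were searched in GENCODE 29 transcripts with Python 3.11.15.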

Additional observations from a re-analysis of the deposited data

How the results depend on the processing

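Over 15 alternatives, MUC1, MUC16, MUC20, WFDC2, MSX1 and FOXJ1 kept their direction and call. Their log2 differences ranged from 0.53 to 0.83, 0.47 to 0.74, 0.47 to 0.93, -0.93 to -0.78, -0.50 to -0.38 and -0.81 to -0.62. The highest adjusted p was 0.013, for MUC20. The 0.53 of MUC1, the 0.47 of MUC16 and of MUC20 and the -0.62 of FOXJ1 came from limma-trend on log2(FPKM + 1). Where FPKM is low, the added 1 makes such a difference smaller than the log2 fold change. EMX2 was called under 2 alternatives, and PAX8 under none (adjusted p 0.506 to 0.958, log2 fold change -0.04 to 0.04). Library-size-only scaling moved the median of all genes from 0.00 to 0.06; with it genes called higher numbered 4512 and genes called lower 2842, in place of 3586 and 3597.

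On the log2(FPKM + 1) scale, falls among gland secretory products numbered 1 and rises among genes of multiciliated cells 0. With each library left out in turn, falls among O-glycosylation genes numbered 2 to 4 and falls among gland secretory products 1 to 3. Rises among genes of multiciliated cells then numbered 0 to 1. For TCF19, the genes picked from the lists by lowest p or highest CPM, and those most like MUC16 and WFDC2, 658 values under alternatives were compared. Of these, 646 kept the side of the threshold, 10 lost the call and 2 gained it. Genes named after their values were seen, or only for overlapping or copying a member, are not among them. Their calls were often less stable: GALNT4, LCN2 and MTX1 were each not called under 7 of the 15 alternatives.

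The labels share replicate numbers between groups without saying what they mark. Deviations from the group means correlated at 0.0086, -0.0241 and 0.021 for the same numbers and at -0.0291 to 0.0202 for different numbers. Values this small show no shared effect of a number, and they cannot decide whether the numbers pair the libraries. With the replicate block, genes called higher numbered 3433 and genes called lower 3441, and 3 members rose and 3 fell. Depth limits what can be said of PAX2 and FOXA2.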
